A study of Mus musculus with 12 samples.

Results

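The aryl hydrocarbon receptor (AhR) battery was followed here through 8 genes, out of the 23337 gene symbols counted in each of 12 libraries of mouse oesophageal epithelium. The members were Ahr, Arnt, Ahrr, Tiparp, Cyp1a1, Cyp1b1, Nqo1 and Aldh3a1. They were chosen by name as genes of the AhR pathway, and the set was selected on 1 measured result, the low count of Cyp1b1 in the group that carried both genetic changes, set against Control. All member values of that comparison are therefore given below as a description, with no test. All 8 members passed the filter on low counts, which kept 14134 genes.

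The receptor is a transcription factor of the bHLH-PAS family. It waits in the cytoplasm in a complex with HSP90 and, once it binds a ligand such as dioxin, a polycyclic aromatic hydrocarbon or a tryptophan metabolite, it enters the nucleus, pairs with ARNT and binds DNA at a short core sequence, GCGTG, upstream of its target genes. Cyp1a1 and Cyp1b1, cytochrome P450 enzymes that oxidise polycyclic hydrocarbons, are its best known targets, Ahrr and Tiparp are targets that restrain the receptor in turn, and Nqo1 and Aldh3a1 encode detoxifying enzymes that are also expressed without it. The squamous lining of the oesophagus meets swallowed xenobiotics directly.

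All mice were C57BL/6 and 6 weeks old, and each of the 4 genotype groups had 3 libraries of polyadenylated RNA from epithelium peeled off the stroma. The active IKKβ group was ED/L2-Cre+; ROSA26-StopFL-Ikk2ca+/L, in which Cre removes a stop cassette in front of a constitutively active IKK2 (IKKβ), the kinase that releases NF-κB. The Stat3 loss group was ED/L2-Cre+; Stat3L/L, where Cre is meant to delete floxed Stat3. Combined mice were ED/L2-Cre+ and carried ROSA26-StopFL-Ikk2ca+/L as well as Stat3L/L. Control mice were ROSA26-StopFL-Ikk2ca+/L; Stat3L/L with no Cre, so they carried both altered loci unrecombined, and Cre itself differed between Control and every other group. The ED/L2 promoter, from Epstein-Barr virus, drives Cre in the squamous epithelium, so other cells in a library keep both loci unrecombined. Each group held female and male RNA (below), hence at least 2 animals, but no label ties each library to its own animal, so p-values measure the spread between these libraries, which may in part be technical.

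Libraries held 14.8 M to 30.2 M counts. Stat3 counts stayed between 139 and 154 CPM (counts scaled to a total of 1 M, on TMM-scaled library sizes) in the Stat3 loss libraries and between 154 and 194 in the combined libraries, against 157 to 179 in Control, and a whole-gene count does not show exon deletion. Ikbkb lay at 84.6 to 97.6 CPM with active IKKβ and 83.4 to 97 in the combined group, against 59.7 to 82.6 in Control. By Xist and Y-linked genes, each group had a female replicate 1, while replicates 2 and 3 were male. Basal (17583 to 32111 CPM, 8 genes summed) and suprabasal keratinocyte markers (40785 to 186796 CPM, 8 genes) were high in all 12 libraries of this squamous tissue, and none was at 0. Other tissues were present as well: none of the 10 fibroblast, 10 smooth muscle or 10 endothelial markers was at 0 in any library, and summed gastric markers reached 1708 CPM in active IKKβ replicate 1 and 113 CPM in Stat3 loss replicate 3, against 0.922 to 18.9 CPM in the other 10. In bulk RNA, fewer cells of a type and less RNA per cell cannot be told apart.

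Promoter sequence was matched for 6 of the 8 members in a RefSeq table built on GRCm38.p6, as 300-base windows reaching just past the transcription start site, and Ahr and Aldh3a1 were not in it. The 3 windows below belong to the members whose counts differed most between groups, and capitals mark the AhR core motif, GCGTG when it lies on the gene's own strand and CACGC when it lies on the opposite strand. Cyp1b1 is shown at chr17:79715012-79715311 (minus strand), Cyp1a1 at chr9:57697363-57697662 (plus strand) and Ahrr at chr13:74292282-74292581 (minus strand).
Cyp1b1: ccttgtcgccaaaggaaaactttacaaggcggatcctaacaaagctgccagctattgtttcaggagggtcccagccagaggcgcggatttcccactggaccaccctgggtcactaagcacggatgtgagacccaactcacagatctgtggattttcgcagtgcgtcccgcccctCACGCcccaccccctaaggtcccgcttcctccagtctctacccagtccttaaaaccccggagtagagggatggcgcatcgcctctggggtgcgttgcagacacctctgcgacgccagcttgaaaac
Cyp1a1: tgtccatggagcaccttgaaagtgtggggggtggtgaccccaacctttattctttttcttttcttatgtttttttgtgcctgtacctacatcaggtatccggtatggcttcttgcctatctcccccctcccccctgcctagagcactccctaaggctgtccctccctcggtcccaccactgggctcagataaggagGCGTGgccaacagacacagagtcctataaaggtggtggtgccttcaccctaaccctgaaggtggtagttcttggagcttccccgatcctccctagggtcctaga
Ahrr: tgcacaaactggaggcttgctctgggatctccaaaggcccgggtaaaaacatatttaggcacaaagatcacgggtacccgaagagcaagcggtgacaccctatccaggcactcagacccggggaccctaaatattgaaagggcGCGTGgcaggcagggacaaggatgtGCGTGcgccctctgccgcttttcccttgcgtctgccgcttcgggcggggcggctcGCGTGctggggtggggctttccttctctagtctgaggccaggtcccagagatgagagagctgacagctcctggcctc
The Cyp1b1 window held 1 motif, on the opposite strand at position -76 from the start site, and the Cyp1a1 window held 1 on its own strand at -54. The Ahrr window held 3, all on its own strand, at -107, -82 and -27. Arnt and Tiparp had 1 each and Nqo1 had 0. Of 32851 mouse promoter windows of the same length, 32.4% held the motif at least once on either strand and 3.91% held it 3 times or more. A match is a stretch of letters only, and no binding was measured.

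**Figure D1:**
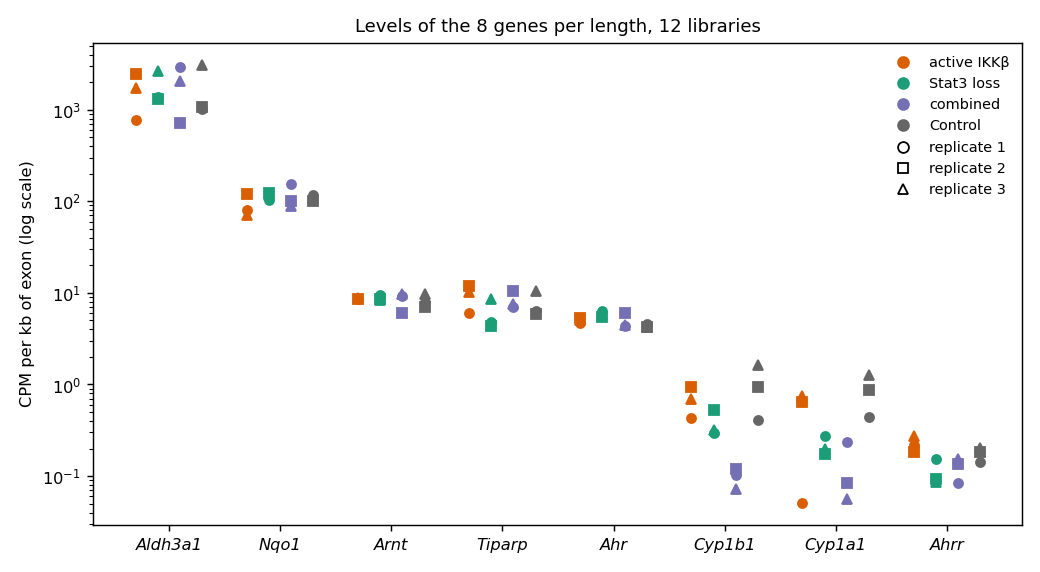
Level of each of the 8 genes per length (CPM per kb of exon, log scale) in each of 12 libraries; colour gives the genotype group and marker shape the replicate. Aldh3a1 lies at or above 722 and Ahrr below 0.28 CPM per kb in each library, and Cyp1b1 and Cyp1a1 spread most.

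The members spanned a wide range of levels. Per kilobase of exon, Aldh3a1, which oxidises medium-chain aldehydes and is a major protein of the cornea, was the highest, with a median over the 12 libraries of 1562 CPM per kb (range 722 to 3108), and it took 0.140 to 0.604% of CPM. Nqo1, a quinone reductase, followed at 106 CPM per kb (70.3 to 154). Arnt at 8.64, Tiparp at 7.30 and Ahr at 4.90 CPM per kb formed a middle tier, in which the ranges of Arnt (6.06 to 9.72), Tiparp (4.34 to 12) and Ahr (4.27 to 6.34) all overlapped. Cyp1b1 at 0.420 (0.0717 to 1.64), Cyp1a1 at 0.254 (0.0509 to 1.28) and Ahrr at 0.154 CPM per kb (0.0848 to 0.273) were lowest, and their ranges overlapped. Their levels rest on few reads, 8 to 251 counts per library for Cyp1b1, 3 to 94 for Cyp1a1 and 15 to 60 for Ahrr.

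**Figure D2:**
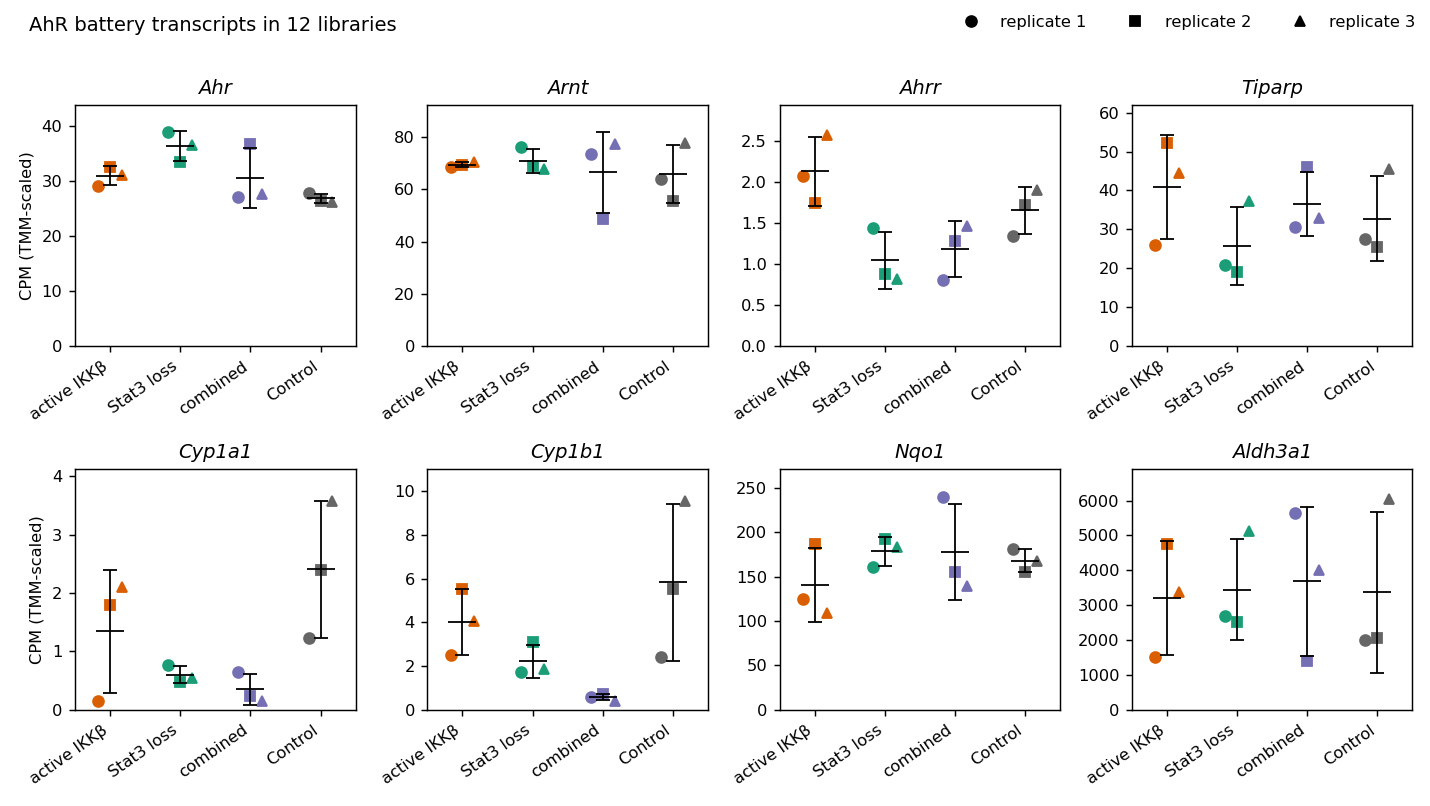
CPM of each of the 8 genes in active IKKβ, Stat3 loss, combined and Control libraries (3 per group); points are libraries, with marker shape for the replicate, and bars show the mean ± SD. The 3 combined libraries lie at 0.42 to 0.70 CPM for Cyp1b1, below all 9 others, while Arnt, Nqo1 and Aldh3a1 overlap in every comparison made.

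Ahr (chromosome 12, 35497974 to 35535038, minus strand, mm10), the receptor itself, was measured at 29.2, 32.6 and 31.2 CPM in active IKKβ libraries, 39.1, 33.6 and 36.6 CPM in Stat3 loss libraries and 27.1, 36.9 and 27.6 CPM in combined libraries, against 27.9, 26.4 and 26.3 CPM in Control. Stat3 loss libraries lay above all Control libraries, and so, by less, did the active IKKβ libraries. In group means the order was 36.4 ± 2.76 CPM with Stat3 loss, 31.0 ± 1.71 with active IKKβ, 30.5 ± 5.48 in the combined group and 26.9 ± 0.876 in Control (SD, n = 3 each), and the combined libraries overlapped all 3 other groups. The log2 fold change with Stat3 loss was 0.44 ± 0.13 (SE), a 1.35-fold difference that did not pass (edgeR quasi-likelihood test, adjusted p = 0.496), and with active IKKβ it was 0.21 ± 0.13 (edgeR adjusted p = 0.532). The interaction, which asks whether the combined group departs from the sum of both single differences, was -0.46 ± 0.18 on the log2 scale and did not pass (edgeR adjusted p = 0.999972).

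Arnt (chromosome 3, 95434388 to 95497240, plus strand) is the shared partner of AhR and of the hypoxia-inducible factors. Over the pairwise comparisons made, its largest fitted difference was the smallest among the 8. In single comparisons other members could differ less, such as Nqo1 at -0.0059 on the log2 scale for combined against Stat3 loss. Its CPM values were 68.6, 69.4 and 70.4 in active IKKβ libraries, 76.1, 68.9 and 67.8 in Stat3 loss libraries, and 73.5, 48.5 and 77.5 in combined libraries, against 64.0, 55.7 and 77.8 in Control. All 4 groups overlapped, combined replicate 2 was the lowest library, and the group fold changes lay between -0.09 and 0.11 on the log2 scale. The 95% interval against Control was -0.30 to 0.45 for active IKKβ and -0.27 to 0.48 for Stat3 loss.

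Ahrr (chromosome 13, 74211118 to 74292331, minus strand), the repressor that competes with AhR for ARNT, was measured at 2.08, 1.74 and 2.58 CPM in active IKKβ libraries, 1.44, 0.88 and 0.82 CPM in Stat3 loss libraries, and 0.80, 1.28 and 1.47 CPM in combined libraries, against 1.34, 1.72 and 1.90 CPM in Control. All combined libraries lay below all active IKKβ libraries, and the other comparisons of the combined group overlapped. The group means were 2.13 ± 0.422 CPM with active IKKβ, 1.18 ± 0.342 in the combined group and 1.05 ± 0.344 with Stat3 loss, against 1.66 ± 0.287 CPM in Control (SD, n = 3 each). The combined and Stat3 loss libraries each overlapped Control, and active IKKβ libraries overlapped Control as well. Combined against active IKKβ gave -0.85 ± 0.35 on the log2 scale (SE; edgeR adjusted p = 0.480), Stat3 loss against Control -0.66 ± 0.36 (edgeR adjusted p = 0.715) and active IKKβ against Control 0.36 ± 0.35 (edgeR adjusted p = 0.700). None of these passed.

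Tiparp (chromosome 3, 65528410 to 65555518, plus strand), which ADP-ribosylates AhR and so limits it, had 26.0, 52.2 and 44.5 CPM in active IKKβ libraries, 20.9, 18.9 and 37.2 CPM in Stat3 loss libraries, and 30.7, 45.9 and 32.9 CPM in combined libraries, against 27.4, 25.5 and 45.4 CPM in Control. Libraries spread widely within each group, and all groups overlapped. The largest log2 difference was 0.51 ± 0.33 for combined against Stat3 loss (SE; edgeR adjusted p = 0.746). The annotated gene on the opposite strand of Tiparp, 4931440P22Rik, had 4 to 20 counts per library, and the strand setting of the counting is not given in the sources used here.

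Cyp1b1 (chromosome 17, 79701537 to 79715061, minus strand), a P450 of extrahepatic tissues that oxidises polycyclic hydrocarbons and oestrogens, had 53, 114 and 94 counts in active IKKβ libraries, 38, 70 and 34 in Stat3 loss libraries, and 12, 12 and 8 in combined libraries, against 43, 106 and 251 in Control. As CPM these were 2.50, 5.51 and 4.04 in active IKKβ libraries, 1.71, 3.07 and 1.85 in Stat3 loss libraries, and 0.60, 0.70 and 0.42 in combined libraries, against 2.40, 5.54 and 9.56 in Control. The 3 combined libraries were the 3 lowest of the 12. Mean levels were 4.02 ± 1.5 CPM with active IKKβ, 2.21 ± 0.749 with Stat3 loss and 0.572 ± 0.141 in the combined group, against 5.83 ± 3.59 CPM in Control, the group with the widest spread (SD, n = 3 each). Active IKKβ and Stat3 loss each overlapped Control.

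The combined group was 10.2-fold below Control in Cyp1b1 (log2 fold change -3.35 ± 0.54, SE), which is the result that selected the gene. Set against each single change, the combined libraries also lay below all 3 libraries of the other group, with log2 fold changes of -2.80 ± 0.53 against active IKKβ and -1.95 ± 0.53 against Stat3 loss. Both differences reuse the combined libraries that selected Cyp1b1, so they are descriptions too. The single changes gave smaller values against Control, -1.40 ± 0.48 for Stat3 loss and -0.54 ± 0.47 for active IKKβ (SE). Both reuse the 3 Control libraries that selected Cyp1b1, so they are given as descriptions as well, with no test. Without Control replicate 3, the library highest in Cyp1b1, the active IKKβ value was 0.0151. Beyond the sum of both single values, the combined group differed by -1.40 ± 0.70, again a description that rests on the combined libraries.

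Cyp1a1 (chromosome 9, 57687928 to 57703824, plus strand), the P450 most often used as a readout of AhR activity, had 3, 37 and 49 counts in active IKKβ libraries, 17, 11 and 10 in Stat3 loss libraries, and 13, 4 and 3 in combined libraries, against 22, 46 and 94 in Control. In CPM it was measured at 0.14, 1.79 and 2.11 in active IKKβ libraries, 0.77, 0.48 and 0.55 in Stat3 loss libraries, and 0.65, 0.23 and 0.16 in combined libraries, against 1.23, 2.40 and 3.58 in Control. Stat3 loss and combined libraries each lay below every Control library and overlapped each other, while active IKKβ replicate 1 was the lowest of all 12 and its 2 companions lay within the Control range. Stat3 loss was 4.01-fold below Control (log2 fold change -2.0 ± 0.79, SE), which did not pass (edgeR adjusted p = 0.599). Active IKKβ against Control gave -0.84 ± 0.75 (edgeR adjusted p = 0.678) and -0.31 ± 0.59 without the 2 libraries rich in gastric transcripts, of which replicate 1 is 1. Combined against Control, described without a test, was -2.77 ± 0.83, and combined against active IKKβ was -1.93 ± 0.83 (edgeR adjusted p = 0.489).

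**Figure D3:**
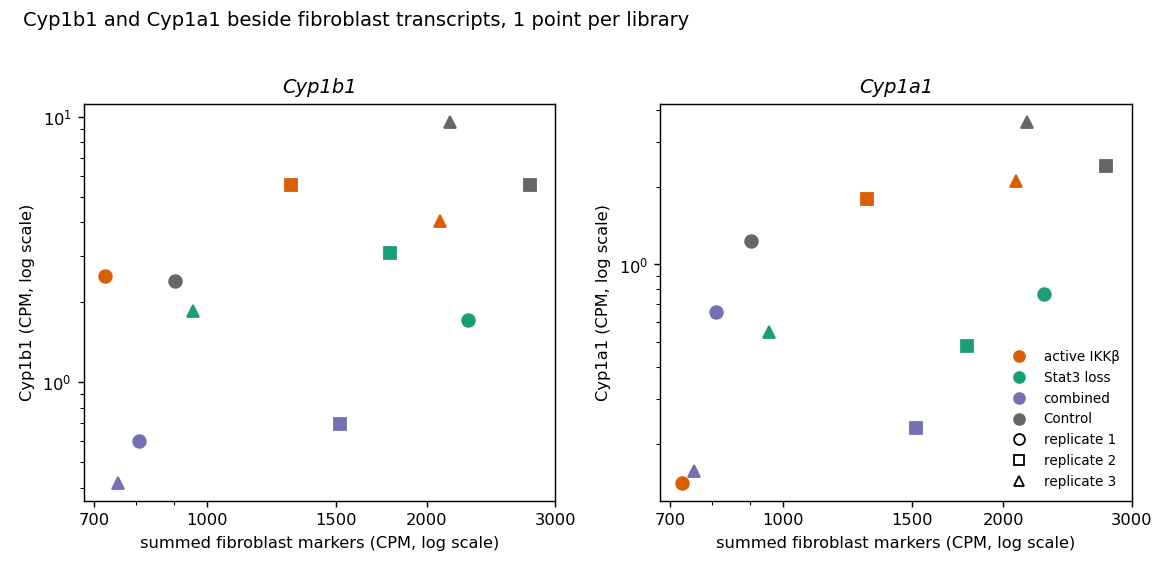
Cyp1b1 (left) and Cyp1a1 (right) in CPM against the summed CPM of 10 fibroblast markers, both on log scales, 1 point per library, coloured by group with marker shape for the replicate. At like fibroblast sums, combined libraries lie lowest for Cyp1b1, and active IKKβ replicate 1 lies lowest for Cyp1a1.

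Markers of stromal cells also had lower values in combined libraries than in Control, with overlap for the fibroblast and the endothelial sums. Summed fibroblast markers were 726, 1304 and 2082 CPM in active IKKβ libraries, 2274, 1783 and 956 CPM in Stat3 loss libraries, and 808, 1521 and 754 CPM in combined libraries, against 905, 2765 and 2154 CPM in Control. All 10 fibroblast markers had a combined-against-Control fold change below 0 (median -0.85 on the log2 scale), as had 9 of 10 smooth muscle markers (median -0.64), 9 of 10 endothelial markers (median -0.34) and 7 of 7 tested nerve and Schwann markers (median -1.62). Endothelial sums were 53.6 to 140 CPM in the combined group, against 105 to 153 CPM in Control. Smooth muscle sums were 1613 to 2249 CPM in the combined group, against 2414 to 3088 CPM in Control, and nerve sums 113 to 123 CPM in the combined group, against 150 to 360 CPM in Control. Divided by the fibroblast sum, Cyp1b1 was 0.458 to 0.743 units (CPM per 1 K fibroblast CPM) in combined libraries, against 2.0 to 4.44 units in Control, a difference of -2.32 between the group means of the log2 ratio. Per nerve and Schwann marker CPM the log2 difference was -2.25, per smooth muscle marker CPM -2.66 and per endothelial marker CPM -2.75. The same divisions gave -2.52 to -2.01 for Cyp1a1. All of these use the values that selected Cyp1b1, or the same comparison, and are descriptions. For Stat3 loss against Control, smooth muscle (10 of 10, median -0.87), endothelial (10 of 10, median -0.83) and nerve markers (7 of 7, median -1.85) were below 0 too. Fibroblast markers lay nearer to no change (8 of 10 below 0, median -0.18). With active IKKβ against Control, nerve markers (7 of 7, median -1.05) and most fibroblast markers (8 of 10, median -0.28) were below 0 as well. Smooth muscle markers were split there (5 of 10 below 0, median -0.056), and 8 of 10 endothelial markers lay above 0 (median 0.18). The medians of all tested genes were 0.0019 for combined, -0.016 for Stat3 loss and 0.0048 for active IKKβ against Control. In each of these comparisons edgeR called 0 of the markers in these 4 lists. DESeq2 called only nerve markers among them, 4 of 7 in the combined group, 1 of 7 with Stat3 loss and 0 with active IKKβ. Of all tested genes it called 3.37, 0.75 and 3.13% in these comparisons. Tested adipocyte markers were also below 0 in the combined group (5 of 6, median -6.52), with Stat3 loss (6 of 6, median -5.46) and with active IKKβ (5 of 6, median -1.40). Their sums were low, at 12.1 to 21.0 CPM in the combined group, against 13.6 to 166 CPM in Control. DESeq2 called Cfd and Retn in the combined group and Cfd and Fabp4 with Stat3 loss, and edgeR called 0. The part of all these cell types in the P450 values was not tested.

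Nqo1 (chromosome 8, 107388225 to 107403206, minus strand), a quinone reductase under joint control of AhR and NRF2, had 125, 187 and 109 CPM in active IKKβ libraries, 160, 192 and 184 CPM in Stat3 loss libraries, and 240, 155 and 139 CPM in combined libraries, against 181, 155 and 168 CPM in Control. All groups overlapped. The largest log2 difference was 0.34 ± 0.23 for combined against active IKKβ (SE; edgeR adjusted p = 0.647), and for Stat3 loss against Control the value was 0.09, with a 95% interval of -0.41 to 0.59.

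**Figure D4:**
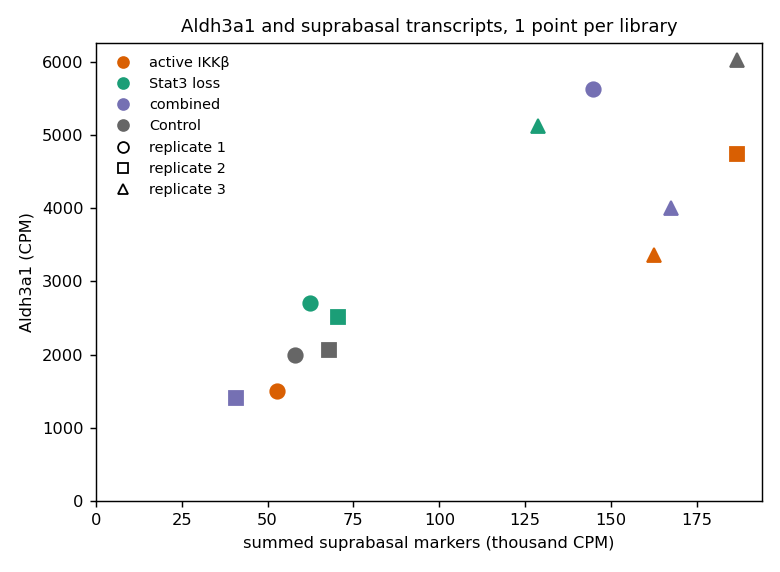
Aldh3a1 in CPM against the summed CPM of 8 suprabasal keratinocyte markers, 1 point per library, coloured by group with marker shape for the replicate. The 6 libraries with at least 3366 CPM of Aldh3a1 all have at least 128865 CPM of suprabasal markers, and each genotype group has libraries on both sides.

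Aldh3a1 (chromosome 11, 61207537 to 61218421, plus strand) had 1501, 4746 and 3366 CPM in active IKKβ libraries, 2702, 2514 and 5125 CPM in Stat3 loss libraries, and 5633, 1402 and 4012 CPM in combined libraries, against 1996, 2058 and 6035 CPM in Control. The gene varied widely inside every group. Group means were 3204 ± 1628 CPM with active IKKβ, 3447 ± 1456 with Stat3 loss, 3682 ± 2135 in the combined group and 3363 ± 2314 in Control (SD, n = 3 each). The fold changes lay between -0.07 and 0.20 on the log2 scale with standard errors of 0.60, so a change of 2-fold in either direction lay inside each 95% interval. The 6 libraries highest in Aldh3a1, at 3366 CPM and above, were also the 6 highest in the summed suprabasal markers, at 128865 CPM and above, while the other 6 had at most 2702 CPM of Aldh3a1 and 70562 CPM of those markers. The part of suprabasal content in the spread of Aldh3a1 was not tested.

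**Figure D5:**
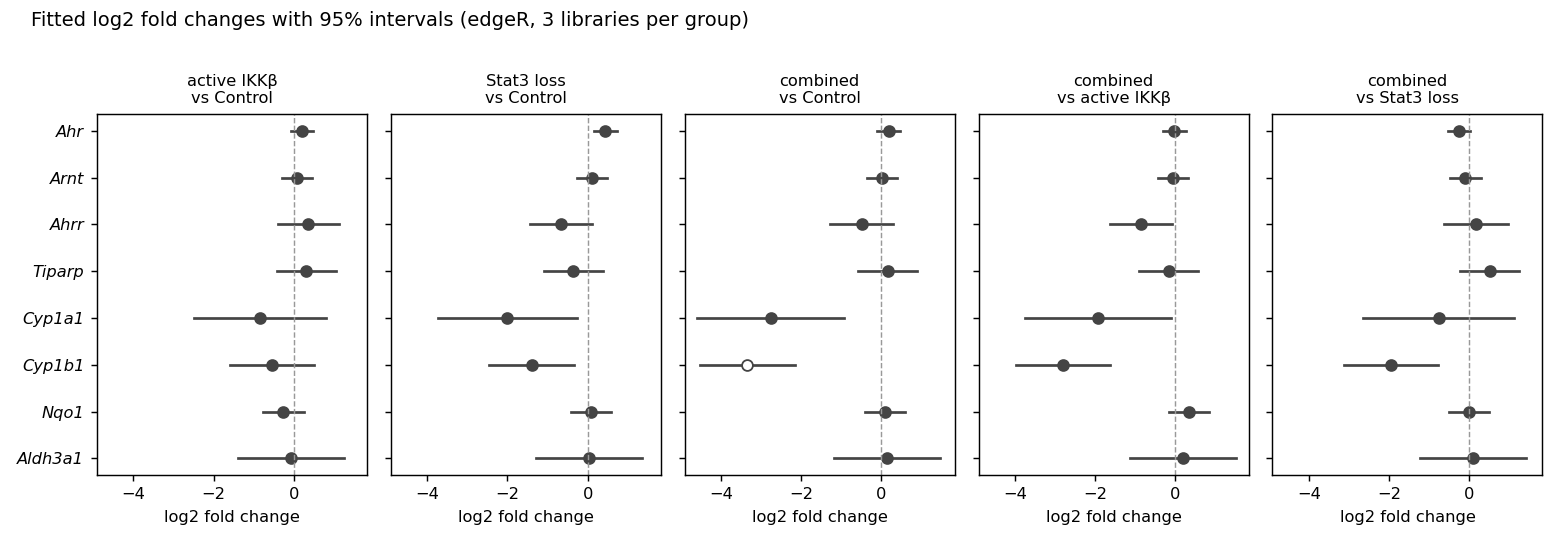
Log2 fold changes of the 8 genes in 5 comparisons (edgeR fit, 3 libraries per group), with 95% intervals; the open point is the value that selected Cyp1b1. Most intervals include 0, the dashed line; Cyp1a1, Cyp1b1 and Aldh3a1 have the widest.

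Counted over the 8 genes, edgeR called 0 with active IKKβ against Control, where 0.955% of all tested genes were called, 0 with Stat3 loss against Control (0% of all genes), 0 for combined against active IKKβ (0%), 0 for combined against Stat3 loss (0.460%) and 0 in the interaction (0%). At an unadjusted p below 0.05 the members numbered 0, 3, 3, 1 and 1 in these comparisons, where the shares of all tested genes were 13, 7.5, 9.88, 8.96 and 4.66%. DESeq2 called 0, 0, 1, 1 and 0 members, and 3.13, 0.75, 0.927, 2.1 and 0.0425% of all genes. Cyp1b1, chosen on its combined and Control libraries, is the member called by DESeq2 in both cases. At the unadjusted threshold it is among the members counted for Stat3 loss against Control and for the combined group against each single change. Combined against Control selected the set, so its count of 1 member, Cyp1b1, was fixed by that choice and nothing is read from it, beside 0.884% of all genes. Libraries did not overlap between groups for 1 member, Ahr, with active IKKβ against Control (17.6% of all genes), for 2, Ahr upward and Cyp1a1 downward, with Stat3 loss against Control (13.1%), for 2, Cyp1a1 and Cyp1b1, in the combined group against Control (15.0%), for 2, Ahrr and Cyp1b1, in combined against active IKKβ (14.7%), and for 1, Cyp1b1, in combined against Stat3 loss (12.9%). The counts of the combined group include Cyp1b1, whose combined libraries selected the set, so they are descriptions and nothing is read from them. With so few members, the 1 and 2 of 8 for the single changes against Control are near their background shares. The median log2 fold change of the 8 was 0.0036 with active IKKβ and -0.16 with Stat3 loss against Control, where the medians of all tested genes were 0.0048 and -0.016. The 3 comparisons with Control share its 3 libraries.

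The members did not vary as 1 unit across libraries. Over the 12 libraries, Pearson correlations of log2 CPM between members were highest for Cyp1a1 with Cyp1b1 (0.78, and 0.61 once group means were removed) and for Arnt with Aldh3a1 (0.68 and 0.70), and lowest for Ahrr with Nqo1 (-0.79 and -0.83). Ahr, the receptor, correlated with Cyp1a1 at -0.29 and with Cyp1b1 at -0.18, and at 0.095 and 0.029 once group means were removed. These are descriptions over points that share library composition and, within groups, genotype. Among the tested genes most like Cyp1b1 across the 12 libraries were Galnt2 (0.93), Casp2 (0.91), Prkca (0.89), Atp10a (0.87), Gabra3 (0.86), Vwa1 (0.86), Prmt7 (0.85), Ipo11 (0.85) and Tmprss5 (0.85). Least like it were N4bp2l2 (-0.91), Ubxn1 (-0.90), Wsb1 (-0.87), Wdr37 (-0.86) and Ctla4 (-0.86). The values that selected Cyp1b1 enter all of these correlations. Once group means were removed, the genes most like Cyp1b1 lay at 0.22 (Atp10a) to 0.79 (Ipo11). Those least like it lay at -0.92 (Wdr37) to -0.52 (N4bp2l2). Gabra3 and Tmprss5 had few reads, at a mean of 0.38 and 0.33 CPM. Cyp1a1 was most like Mfap4 (0.91), an extracellular matrix gene, and Bicc1 (0.89), and Ahrr most like Eno2 (0.91), Dock10 (0.90) and Layn (0.89). Tiparp followed the immediate early gene Egr1 (0.90) along with Trib1 (0.92) and Fbxo30 (0.90), and Nqo1 followed Cbr1 (0.84), BC004004 (0.83) and Blvrb (0.81). Aldh3a1 was most like Dhcr7 (0.98), Pdlim2 (0.96) and Osbpl1a (0.96), Ahr most like Crim1 (0.86), Cyld (0.82) and Lrch1 (0.82), and genes close to Arnt included Atf7 (0.94) and Erbb3 (0.93).

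Other genes of the pathway, and genes of related families and pathways, were read from 9 lists with 122 tested entries. In the comparisons other than combined against Control, edgeR called 1 of them: Parp8, a mono-ADP-ribosyltransferase of the same family as Tiparp, which rose 1.02 ± 0.19 on the log2 scale with active IKKβ (SE; edgeR adjusted p = 0.0330). That call was lost in 9 of 12 fits that left out 1 library (adjusted p = 0.0251 to 0.127), with the value at 0.84 to 1.1. Its means were 23.3 ± 4.77 CPM with active IKKβ, 17.6 ± 2.47 with Stat3 loss and 32.5 ± 6.40 in the combined group, against 11.5 ± 1.1 CPM in Control (SD, n = 3 each). At an unadjusted p below 0.05 there were 25 entries with active IKKβ against Control and 9 with Stat3 loss against Control, and DESeq2 called 5 and 0. Of all tested genes, 13 and 7.5% reached that p, DESeq2 called 3.13 and 0.75%, and edgeR called 0.955 and 0%. In combined against active IKKβ edgeR called 0 (15 unadjusted, 1 by DESeq2), in combined against Stat3 loss 0 (13 unadjusted, 3 by DESeq2) and in the interaction 0 (2 unadjusted, 0 by DESeq2). The shares of all tested genes at that unadjusted p were 9.88, 8.96 and 4.66%, and DESeq2 called 0.927, 2.1 and 0.0425% of them.

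By role, no gene of the AhR complex and its coregulators (12 tested) passed in any comparison with edgeR or DESeq2, with Hsp90ab1, the HSP90 chaperone, the highest per length at 946 CPM per kb. None of 15 tested further AhR targets passed with either tool. These lists held at most 2 and 1 genes at an unadjusted p below 0.05 in a comparison, and Cyp1a2, Il22 and Ido1 did not reach the filter. Among the highest of these per length were Nfe2l2, which encodes NRF2, at 123 CPM per kb and Cyp2s1, a P450 of epithelia, at 100.2. Of 24 NRF2 targets edgeR called 0 in any comparison. Against Control, 16 lay below 0 with active IKKβ (median -0.14 on the log2 scale), 16 with Stat3 loss (median -0.070) and 15 in the combined group (median -0.078). With active IKKβ, 9 had an unadjusted p below 0.05, most of them lower, where the share of all tested genes was 13%. Slc7a11, the cystine transporter, was among those that went the other way. It had 56.2 ± 37.5 CPM with active IKKβ, against 11.6 ± 9.14 CPM in Control (2.27 ± 0.73 SE, edgeR adjusted p = 0.233). Of 11 tested bHLH-PAS relatives none passed with edgeR. Hif1a, which competes with AhR for ARNT, averaged 286 ± 94.6 CPM with active IKKβ, against 119 ± 29.2 CPM in Control (1.27 ± 0.32, SE; edgeR adjusted p = 0.116). DESeq2 called both Slc7a11 and Hif1a in that comparison, and both are named after their values were seen. Hypoxia targets that depend on ARNT (16 tested) were below 0 in 15 cases for combined against active IKKβ, with a median of -0.29, against -0.015 over all genes, and edgeR called 0 (4 unadjusted, 0 by DESeq2). No gene passed with edgeR in the list of other P450 genes, which includes the reductase Por (11 tested). The same held for aldehyde dehydrogenases other than Aldh3a1 (18 tested) and for tryptophan enzymes (4 tested of 13 found). DESeq2 called Cyp26b1, Cyp2b10, Aldh1a1 and Aldh18a1 in at least 1 comparison. Per length, Cyp2f2 at 1011 CPM per kb lay far above Cyp1a1 and Cyp1b1, and Aldh3b2, the highest other aldehyde dehydrogenase, stood at 187 CPM per kb, below Aldh3a1.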

How the data were processed

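Gene-level read counts of 12 libraries were deposited, unscaled, per gene symbol. Per the submitters' processing notes, cutadapt 1.13, STAR, HTSeq 0.6.1p1 and DESeq2 were used with mm10; strand and annotation are not given in the sources used here. R 4.3.3 with limma 3.58.1 and edgeR 4.0.16 was used here, filterByExpr kept 14134 genes, libraries were TMM-scaled, and 1 robust quasi-likelihood model of 4 group means was fitted to all libraries (common dispersion 0.0878). Genes were called at a Benjamini-Hochberg adjusted p below 0.05 over all tested genes. The steps were tested on simulated data. CPM used scaled library sizes, log2 CPM a prior count of 2, and levels per kb the union of GENCODE M21 exons. Comparisons were each change against Control, combined against each, and the interaction, (combined minus Stat3 loss) minus (active IKKβ minus Control). The closest libraries of a group had a chi-square per degree of freedom of 26.1, far above sampling noise.

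Members, lists and tests were chosen with earlier results of these data known. Named genes were the 8 members, list genes called or among the 3 highest per length, and the 3 most correlated genes (10 and 5 for Cyp1b1), predicted models skipped; some of these correlated genes are not reported here. Alternatives were other scalings, filters, DESeq2 1.42.0, a replicate block, fewer libraries and, added after seeing the data, division by marker sums and sex as a covariate.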

Additional observations from a re-analysis of the deposited data

How the results depend on the processing

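Over 48 values of members and of Parp8, Hif1a and Slc7a11, 1060 recalculations were made. Of these, 987 kept their direction and, where tested, their side of the threshold, and 47 changed sign. Divisions by marker sums have no adjusted p, and counted as kept when they differed from the main value by at most the larger group SD. Counts of called genes with active IKKβ, 135 in all, became 442 with DESeq2, 66 with library totals, 61 with only the compared libraries and 83 without the 2 libraries rich in gastric transcripts, and 42 to 145 with 1 library left out. Combined against Control, 125 (80 higher, 45 lower), became 476, 53 (42 higher, 11 lower with library totals) and 14, and 43 to 147 with 1 library left out. Combined against Stat3 loss, 65 (58 higher, 7 lower), became 297, 29 (all higher), 16 and, without the gastric-rich libraries, 28, and 20 to 81. Counts of 0 became 106 for Stat3 loss, 131 for combined against active IKKβ and 6 for the interaction with DESeq2, and 0 to 1, 0 to 1 and 0 with 1 library left out. Without the gastric-rich libraries Aldh3a1 was 0.27 with active IKKβ, -0.35 with Stat3 loss and -0.13 for combined against active IKKβ, Nqo1 0.000193 for combined against Stat3 loss, and the Cyp1a1 interaction -0.53. With library totals Arnt was -0.0118 in combined against Control, Ahr 0.0680 in combined against active IKKβ and Aldh3a1 -0.0048 in combined against Stat3 loss. With 1 library left out, ranges with active IKKβ were -0.0303 to 0.21 for Arnt, -0.91 to 0.0151 for Cyp1b1 and -0.50 to 0.66 for Aldh3a1, and with Stat3 loss -0.38 to 0.76 for Aldh3a1. In combined against Control they were -0.12 to 0.20 for Arnt, -0.0463 to 0.47 for Tiparp, -0.19 to 0.22 for Nqo1 and -0.32 to 0.86 for Aldh3a1. In combined against active IKKβ they were -0.18 to 0.0716 for Ahr, -0.18 to 0.12 for Arnt, -0.41 to 0.0686 for Tiparp and -0.23 to 0.61 for Aldh3a1. In combined against Stat3 loss they were -0.22 to 0.0896 for Arnt, -0.0165 to 0.47 for Ahrr, -0.27 to 0.14 for Nqo1 and -0.34 to 0.49 for Aldh3a1, and in the interaction -0.36 to 0.11 for Ahrr and -0.73 to 0.56 for Cyp1a1. Parp8 with active IKKβ did not pass with library totals (adjusted p = 0.360), with only the compared libraries (0.119) or without the gastric-rich ones (0.0699). The cause of these shifts was not tested. Few counts limit Cyp1b1, Cyp1a1 and Ahrr.

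With replicate number as a block, 173 genes were called with active IKKβ, 125 in combined against Control and 71 in combined against Stat3 loss, and Aldh3a1 with active IKKβ was 0.13, a changed sign, and Hif1a passed (adjusted p = 0.0342). Same-numbered libraries deviated together with r above 0.1 in 9 of 18 pairs (-0.41 to 0.45, median 0.105). Differently numbered ones did so in 12 of 36 pairs (-0.54 to 0.39, median -0.064). With 3 libraries per group this check cannot decide whether the numbers pair the libraries, and number 1 is female in each group. With sex as a covariate, added after seeing the data, 141, 0, 133, 0, 56 and 0 genes were called for active IKKβ, Stat3 loss and combined against Control, combined against active IKKβ and against Stat3 loss, and the interaction, and no value of a member changed sign or its side of the threshold.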
